A study of Mus musculus with 12 samples.

Results

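CD40 and the proteins that carry its signal inside the cell were described in cDC1 (conventional dendritic cells of type 1), which take up antigen and cross-present it to CD8 T cells. The genes were chosen by name, for their known place in CD40 signalling: the receptor Cd40, the TNF receptor-associated factors Traf1, Traf2, Traf3, Traf5 and Traf6, the kinase NIK (gene Map3k14) and the cellular inhibitors of apoptosis cIAP1 (Birc2) and cIAP2 (Birc3). The choice was made with earlier results of these data known. Of these 9 genes, 8 were measured among 19938 genes in all. Traf3 had no probe set under its symbol in the annotation and was not analysed here.

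Naive C57BL/6 mice were used, and every mouse, controls included, had both Cd40 alleles flanked by loxP sites (CD40 fl/fl). Xcr1Cre+ mice carried in addition 1 Xcr1-Cre allele, which drives Cre from the locus of the chemokine receptor XCR1 and so is meant to delete Cd40 in cDC1, and Xcr1++ mice carried none. The 12 arrays formed 4 groups of 3: migratory cDC1 of skin-draining lymph nodes from Xcr1Cre+ mice and from Xcr1++ mice, and splenic cDC1 from Xcr1Cre+ mice and from Xcr1++ mice. Lymph node cells were gated on intermediate CD11c and spleen cells on high CD11c, so tissue and gate cannot be told apart; all were XCR1-positive, MHC class II-high, and negative for B220 and Sirpa. Neither the age of the mice nor whether replicates were separate animals is given in the sources used here, so the p-values cover no more than the spread among these arrays, which may be technical.

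CD40 is a TNF receptor family member that binds CD40 ligand, carried mainly by activated helper T cells, and it has no enzyme activity of its own. Its tail recruits TRAF adaptors, which lead to the canonical NF-kB and MAP kinase pathways. In resting cells TRAF3, TRAF2 and the cIAPs hold NIK low by having it degraded; once the receptor draws them away, NIK accumulates and starts the noncanonical NF-kB pathway, which ends in RelB and the p52 form of Nfkb2. In dendritic cells this receptor is known for licensing, the step by which helper T cells make them able to prime CD8 T cells.

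Values are RMA intensities on the linear scale, with array medians of 66.1 to 74.4. The highest value of 3 Y-linked genes on any array, 22.2, was taken as background, and 85.8% to 90.3% of genes on an array lay above it. That choice presumes that these genes were silent, which was not tested. The cDC1 label was set against 11 markers. Of these, 7 were called lower in lymph node under both labels, and 2 higher under the Cre label and 1 under the control label. Among all genes, 15.2% were called lower and 13.1% higher under the Cre label, and 13.2% and 12.9% under the control label. Batf3 and Irf8, transcription factors of the lineage, were high in both tissues. Batf3 lay at 2358 to 2768 on lymph node Cre arrays, 2554 to 3020.1 on lymph node control arrays, 1643 to 1946 on spleen Cre arrays and 1423 to 1856 on spleen control arrays. Irf8 lay at 3385 to 4505 on lymph node Cre arrays, 4184 to 4671 on lymph node control arrays, 4225 to 5870.0 on spleen Cre arrays and 3611 to 5289 on spleen control arrays. Tlr3, Naaa, Clec9a and Wdfy4 were lower in lymph node by log2 differences of -4.69, -4.49, -4.13 and -3.67 under the Cre label and -4.57, -4.60, -4.11 and -3.78 under the control label. Xcr1 itself lay at 224 to 267 on Cre and 203 to 286 on control arrays of lymph node, and at 1945 to 3406 on Cre and 2827 to 3508 on control arrays of spleen.

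The promoters of 3 members are shown for reference: those of Birc2 and Birc3, neighbouring paralogs that were both higher in lymph node, and that of Traf1, whose array-to-array deviations followed those of Birc3 most closely. They are RefSeq windows on build GRCm38.p6, 300 bases long, that run from upstream of the start into the gene. All are on the minus strand, with CG dinucleotides in capitals. They were picked after the values were seen.
Traf1, chr2:34961723-34962022: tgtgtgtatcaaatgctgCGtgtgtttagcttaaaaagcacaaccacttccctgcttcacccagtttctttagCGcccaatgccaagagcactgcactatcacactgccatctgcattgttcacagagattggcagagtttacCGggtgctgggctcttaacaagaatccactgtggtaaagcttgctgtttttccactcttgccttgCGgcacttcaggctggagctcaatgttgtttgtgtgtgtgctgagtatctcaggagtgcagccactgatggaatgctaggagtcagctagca
Birc2, chr9:7837008-7837307: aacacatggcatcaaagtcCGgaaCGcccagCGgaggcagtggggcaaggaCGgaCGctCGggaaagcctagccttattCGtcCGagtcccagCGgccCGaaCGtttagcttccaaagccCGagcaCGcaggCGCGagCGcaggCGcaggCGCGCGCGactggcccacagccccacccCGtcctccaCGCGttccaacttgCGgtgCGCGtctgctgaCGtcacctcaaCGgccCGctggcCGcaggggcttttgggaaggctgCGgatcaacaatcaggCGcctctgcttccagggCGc
Birc3, chr9:7873121-7873420: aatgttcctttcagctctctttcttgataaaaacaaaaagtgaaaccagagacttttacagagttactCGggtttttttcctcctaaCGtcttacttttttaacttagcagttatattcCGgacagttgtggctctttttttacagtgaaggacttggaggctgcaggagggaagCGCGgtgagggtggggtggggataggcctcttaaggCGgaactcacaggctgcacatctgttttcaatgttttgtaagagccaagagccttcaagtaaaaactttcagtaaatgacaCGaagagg
The Birc2 window held 34 CG and 67.0% G or C, and 92.3% of the 32851 promoter windows had fewer CG. Birc3 had 7 CG and 43.0% G or C, and Traf1 had 4 CG and 48.7%, with 47.9% and 31.4% of promoters having fewer CG. Birc2 has another window in the table, which overlaps the one shown and held 21 CG. Searched on both strands, the kappaB consensus bound by NF-kB was in 4.51% of all windows and, among the 8 members with a window, in that of Traf3 alone. A narrower kappaB form, which can match the same letters, was in 1.63% of windows and in those of Traf2 and Traf3. The AP-1 form TGANTCA was in 7.81% of windows and in none of the members'. Only exact matches within these windows were counted, so sites elsewhere or of another form were not searched for. Cd40 has no entry in the promoter table.

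Cd40 (probe set 10478678; RefSeq gene at chr2:165055614-165071654, GRCm38.p6), the receptor and the gene targeted by the cross, was high in lymph node cDC1 and did not follow the genotype labels on every array. In lymph node, arrays labelled Cre had a Cd40 intensity of 1427, 1388 and 3358 (replicates 1, 2 and 3; 2058 ± 1127, SD, n = 3), against 2138, 2777 and 1542 on those labelled control (2152 ± 617, SD, n = 3). In spleen it was 365, 214 and 569 on arrays labelled Cre (383 ± 178, SD, n = 3) and 572, 525 and 309 on arrays labelled control (469 ± 140, SD, n = 3). The highest array of each Cre-labelled group and the lowest array of each control-labelled group bore number 3, and the 2 labels overlapped in both tissues. Both lymph node groups lay above both spleen groups without overlap; within a tissue the order of the 2 genotype labels was not beyond their spread. Arrays give levels per amount of RNA, so fewer cells of a type and less RNA per cell cannot be told apart.

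**Figure D1:**
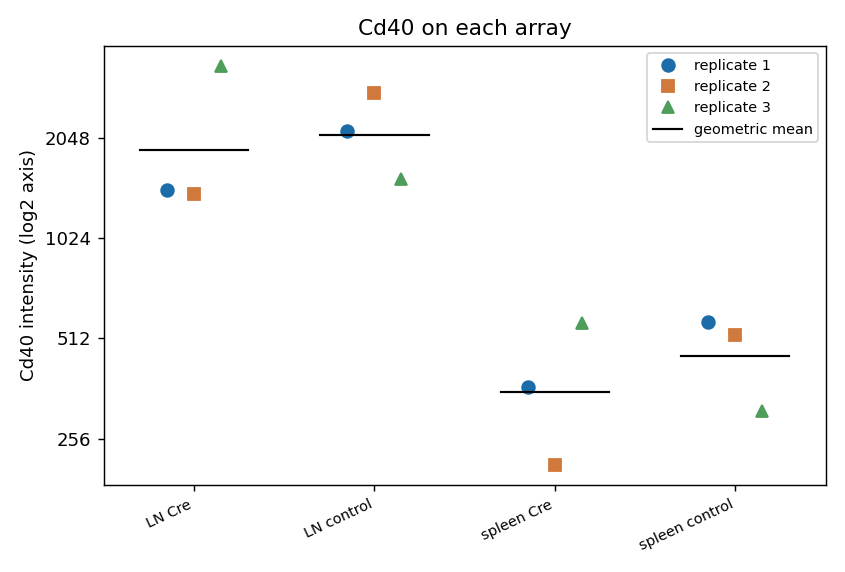
Cd40 intensity (linear RMA values, log axis) on each of the 12 arrays, by group, with circles, squares and triangles for replicates 1, 2 and 3 and a bar at the geometric mean. The triangle is the highest point of both Cre-labelled groups, at 3358 and 569, and the lowest of both control-labelled groups, at 1542 and 309.

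The log2 difference of Cre minus control for Cd40 was -0.15 in lymph node (SE 0.40, 95% interval -1.005 to 0.70, adjusted p = 0.9997, limma with Benjamini-Hochberg adjustment) and -0.35 in spleen (SE 0.40, 95% interval -1.21 to 0.50, adjusted p = 0.9998). The exact two-sided permutation p was 0.8 in lymph node and 0.6 in spleen, where 3 arrays against 3 cannot go below 0.1. Taken by number, the Cre-to-control ratio was 0.668, 0.50 and 2.18 for pairs 1, 2 and 3 of lymph node, and the spleen pairs had 0.638, 0.407 and 1.84. Cd40 was thus lower on the Cre-labelled array in both pairs numbered 1 and 2 and higher in both pairs numbered 3. The pairing of arrays numbered 2 and 3 rests on the labels. Genotypes were taken from the labels alone, and whether the arrays numbered 3 bear the right genotype was not tested. Without the 4 arrays numbered 1, 2 or 3 in turn, the difference was 0.06, 0.27 and -0.79 in lymph node, and for spleen it was -0.21, 0.12 and -0.97; none of these passed the adjusted test. As the arrays numbered 3 are those that go against the labels, the values without them are a description. The probes' positions in the gene were not used here, so whether they lie in the exon that Cre removes is not known.

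The same order of signs, lower in pairs 1 and 2 and higher in pair 3 of both tissues, was found in 486 genes, or 2.44% of all tested. Cd40 had the largest minimum size among them: its smallest difference over the 6 pairs was 0.58 on the log2 scale, and the next gene's was 0.23. No gene was lower in all 6 pairs by at least 0.5. Both the pattern and this size were picked after the values of Cd40 were seen, so these counts are a description with no test.

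The genes whose deviations from the 4 group means most resembled those of Cd40, by Pearson correlation over the 12 arrays among 9969 genes above the median level, were Ibtk (r = 0.940), Sytl1 (0.859), Ell2 (0.846), Psmd13 (0.842), Serpinb9 (0.837), Inpp5a (0.830), Serpinb6b (0.816) and Echdc1 (0.815). The 12 points share their groups, replicate numbers and normalization, and the values describe these 12 arrays with no test. The size of the deviations differed widely: Cd40 ranged between -0.73 and 0.84 on the log2 scale, Ibtk between -0.16 and 0.30, and Sytl1 between -0.10 and 0.11. The 7 other measured members correlated with Cd40 at values between -0.29 for Traf6 and 0.23 for Traf1. Among themselves those 7 correlated at 0.36 (Traf6 with Map3k14) to 0.96 (Traf1 with Birc3). Over all genes the arrays numbered 1 also deviated together (r of 0.57 to 0.73), and no such range for other genes is given here. In both lymph node groups all 7 were lowest on the array numbered 1, which held for 21.4% of all genes, while Cd40 was not.

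All 8 measured members were called higher in lymph node than in spleen on arrays labelled Cre, and 7 of 8 on arrays labelled control, all but Map3k14 (limma, adjusted p under 0.05). Of all genes, 13.1% were called higher on Cre-labelled arrays and 12.9% on control-labelled arrays, 15.2% and 13.2% were called lower, and 28.3% and 26.1% in either direction. Calls were more frequent among bright genes, and all 8 measured members lay above the median level. With limma run on the 9969 genes above it, 2039 were called higher and 2881 lower under the Cre label. Under the control label 2292 were called higher and 2506 lower. The members' median log2 difference was 1.36 and 1.51, beside 0.07 and 0.03 over all genes. All 3 lymph node arrays lay above all 3 spleen arrays for 8 of 8 members under the Cre label and 7 of 8 under the control label, against 22.4% and 19% of all genes. As the members were chosen with earlier results known, these shares describe them with no test of the set.

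Cd40 itself was 5.31-fold higher in lymph node than in spleen on Cre-labelled arrays (log2 difference 2.41, SE 0.40, adjusted p = 0.000324) and 4.62-fold higher on control-labelled arrays (2.21, SE 0.40, adjusted p = 0.000684). By number, the ratio of lymph node to spleen was 3.91, 6.49 and 5.90 under the Cre label and 3.74, 5.28 and 4.99 under the control label. Each of these 6 ratios was taken within 1 label, and the arrays numbered 3 gave ratios within the range of the others in both.

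**Figure D2:**
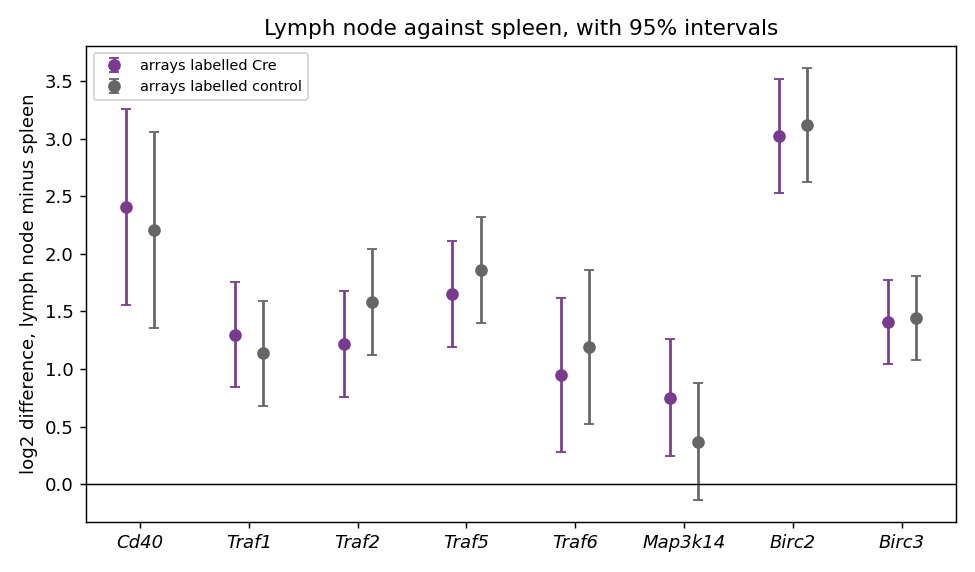
Log2 difference of lymph node minus spleen for the 8 measured members, with 95% intervals from limma, on arrays labelled Cre and on arrays labelled control. Birc2 has the largest difference under both labels, 3.02 and 3.12, and Map3k14 the smallest, 0.75 and 0.37, the only one whose interval reaches 0, under the control label.

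Birc2, which encodes cIAP1, a ubiquitin ligase that marks NIK for degradation (probe set 10590791; chr9:7818226-7837131), had the largest tissue difference of the members. Its intensity was 1952, 2871 and 2610 on lymph node Cre arrays and 273, 293 and 340.3 on spleen Cre arrays. On control-labelled arrays it was 1964, 3381 and 3157 in lymph node, against 249, 334 and 383 in spleen. The 4 groups fell into a high and a low set by tissue with a wide gap, and the Cre and control arrays of a tissue overlapped. Lymph node was 8.13-fold above spleen under the Cre label (log2 3.02, SE 0.23, adjusted p = 2.67e-07) and 8.70-fold under the control label (3.12, SE 0.23, adjusted p = 2.11e-07). A dimmer probe set of the gene gave log2 differences of 1.97 and 2.09, the same direction at a smaller size.

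Birc3 encodes cIAP2, a close relative of cIAP1 whose gene lies beside Birc2 (probe set 10590801; chr9:7847468-7873205). It lay at 2900, 3743 and 3515 on lymph node Cre arrays and at 1169, 1250 and 1392 on spleen Cre arrays. The control-labelled arrays had 2821, 4253 and 4186 in lymph node, against 1319, 1345 and 1403 in spleen. Again the tissues did not overlap and the genotype labels did. The difference was 1.41 under the Cre label (2.66-fold, SE 0.17, adjusted p = 1.95e-05) and 1.44 under the control label (2.72-fold, SE 0.17, adjusted p = 1.63e-05).

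Traf1 is an adaptor that lacks the RING domain of the other members of its family and joins TRAF2 and the cIAPs in receptor complexes; it is itself a known NF-kB target (probe set 10481949; chr2:34941750-34961812). Its intensity was 2165, 3518 and 3263 on lymph node Cre arrays and 1108, 1109 and 1356 on spleen Cre arrays. On control-labelled arrays it was 2326, 3641 and 3817 in lymph node, against 1395, 1482 and 1471 in spleen. Every lymph node array was above every spleen array. The log2 difference was 1.30 under the Cre label (2.46-fold, SE 0.21, adjusted p = 0.000295) and 1.14 under the control label (2.20-fold, SE 0.21, adjusted p = 0.000905); without the arrays numbered 3, the second had an adjusted p of 0.0530.

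Traf2, the adaptor that brings the cIAPs to the receptor (probe set 10480760; chr2:25517982-25546940), had 631, 994 and 672 on lymph node Cre arrays and 349.5, 308 and 309.7 on spleen Cre arrays. On control-labelled arrays it had 709.6, 1006 and 1188 in lymph node, against 275, 360.4 and 321 in spleen. The spleen arrays of both labels lay close together and below all lymph node arrays. The difference was 1.22 under the Cre label (2.33-fold, SE 0.21, adjusted p = 0.000559) and 1.58 under the control label (2.99-fold, SE 0.21, adjusted p = 6.27e-05).

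Traf5, a relative of TRAF2 that can bind the CD40 tail with TRAF3 (probe set 10361139; chr1:191997203-192092599), was low in spleen. It had 329.9, 481 and 412 on lymph node Cre arrays and 124, 138 and 124 on spleen Cre arrays, and 309.8, 447 and 613 on lymph node control arrays and 130.2, 112 and 122 on spleen control arrays. The spleen values spanned a narrow range above the background, and no lymph node array fell into it. The difference was 1.65 under the Cre label (3.14-fold, SE 0.21, adjusted p = 4.11e-05) and 1.86 under the control label (3.63-fold, SE 0.21, adjusted p = 1.42e-05).

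Traf6, which binds CD40 at a site of its own and activates the kinase TAK1 (probe set 10474112; chr2:101678420-101701668), differed less. It had 775, 1437 and 877 on lymph node Cre arrays and 385, 594 and 592 on spleen Cre arrays, and 850.4, 1313 and 1468 on lymph node control arrays and 333, 675 and 609 on spleen control arrays. Tissues did not overlap, but the arrays of a group spread widely. The difference was 0.95 under the Cre label (1.93-fold, SE 0.31, adjusted p = 0.0336) and 1.19 under the control label (2.29-fold, SE 0.31, adjusted p = 0.0099). Under the Cre label the call was lost when Cre replicate 1 or 3 of spleen or Cre replicate 2 or 3 of lymph node was left out (adjusted p of 0.1199, 0.0503, 0.1428 and 0.0521). Under the control label, leaving out replicate 3 of the lymph node controls ended it (adjusted p = 0.0508).

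Map3k14, the kinase NIK that phosphorylates IKK-alpha to start the noncanonical pathway (probe set 10391870; chr11:103219764-103267401), differed least. It lay at 811, 1301 and 924 on lymph node Cre arrays and 648, 495 and 634 on spleen Cre arrays, a separation by tissue. On control-labelled arrays it lay at 713, 1044 and 1343 in lymph node, against 894, 738 and 702 in spleen, so these groups overlapped. The difference was 0.75 under the Cre label (1.69-fold, SE 0.24, adjusted p = 0.0271) and 0.37 under the control label (1.29-fold, SE 0.24, adjusted p = 0.3274). The difference between the 2 labels did not pass the test (0.38, SE 0.33, adjusted p = 0.9996). The Cre-label call was lost without replicate 2 or 3 of spleen Cre or replicate 2 of lymph node Cre (adjusted p of 0.1167, 0.0510 and 0.1177), and the control-label call was gained without the 4 arrays numbered 1 (0.72, adjusted p = 0.0054) or with array weights (0.51, adjusted p = 0.0044).

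**Figure D3:**
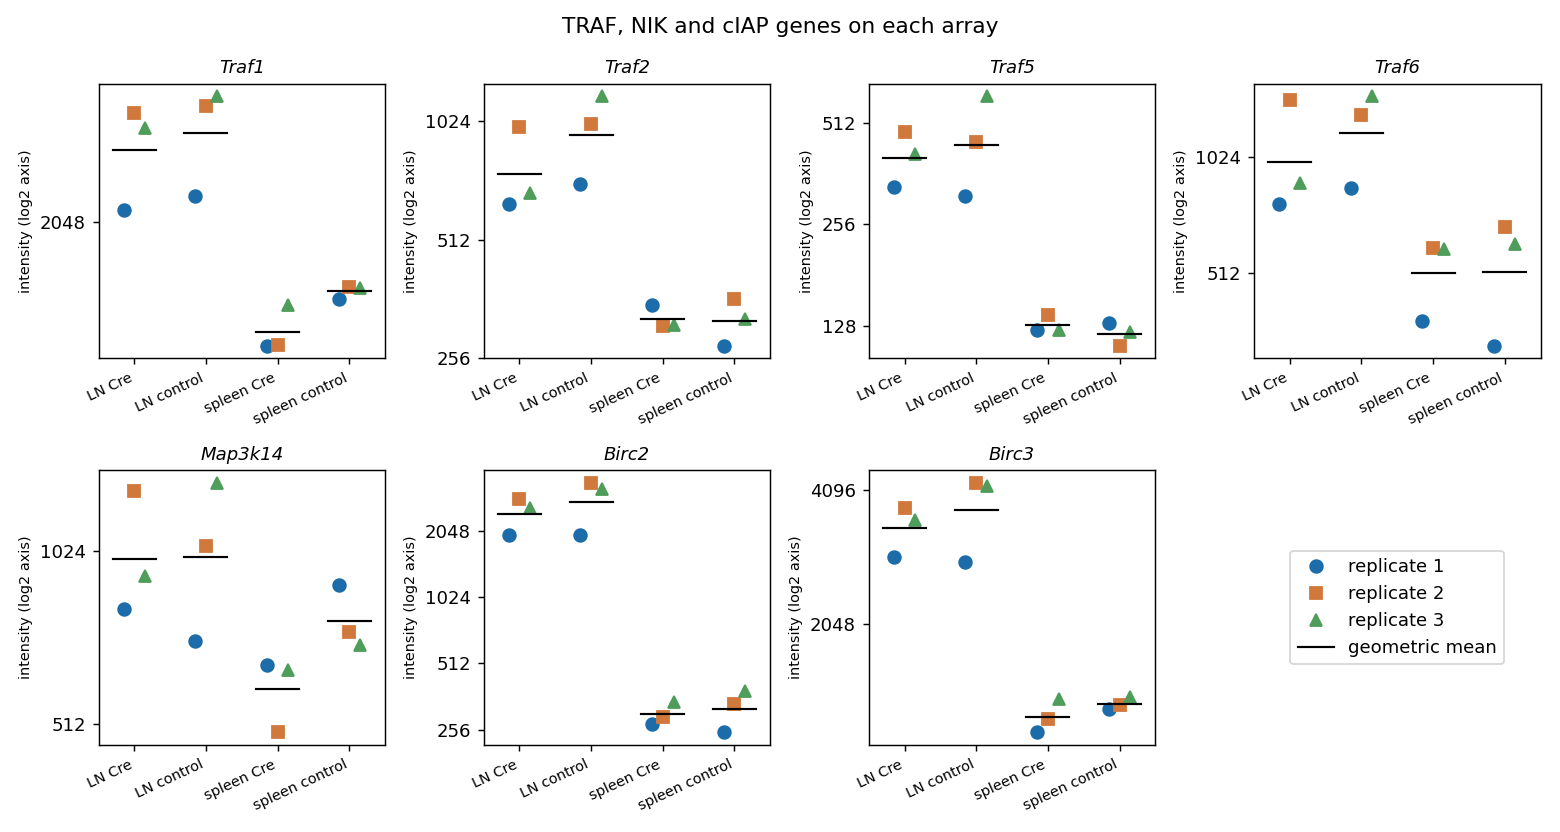
Intensity (linear RMA values, log axis) of Traf1, Traf2, Traf5, Traf6, Map3k14, Birc2 and Birc3 on each of the 12 arrays by group, with circles, squares and triangles for replicates 1, 2 and 3 and a bar at the geometric mean. In every panel the circle is the lowest point of both lymph node groups. Lymph node groups lie above spleen groups except for Map3k14, where both lymph node groups overlap the spleen control group.

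Between the genotype labels, limma called 0 of 19938 genes in either tissue, and so 0 of the 8 members (0% called; 402 genes in lymph node and 357 in spleen had an unadjusted p under 0.05). When arrays were weighted by their quality, 2 genes in lymph node and 51 in spleen were called, none of them a member. In lymph node the log2 differences of Cre minus control ranged between -0.34 for Traf2 (SE 0.21, 95% interval -0.80 to 0.12) and -0.01 for Map3k14 (SE 0.24, interval -0.52 to 0.49), with an adjusted p of 0.9997 for every member. In spleen they ranged between -0.40 for Map3k14 (SE 0.24, interval -0.90 to 0.11) and 0.09 for Traf5 (SE 0.21, interval -0.38 to 0.55), with an adjusted p of 0.9998. The median over members was -0.14 in lymph node and -0.09 in spleen, beside -0.02 and -0.01 over all genes. With 3 arrays a group these intervals leave room for changes of some size, and the missed threshold does not show equal levels.

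Taken by number, Traf1 was lower on the Cre-labelled array in 6 of 6 pairs, as were 2.46% of all genes. Its ratio of Cre to control was 0.931, 0.966 and 0.855 in the lymph node pairs, and 0.794, 0.748 and 0.921 for spleen. The 2 spleen groups of Traf1 did not overlap, with all Cre-labelled arrays below all control-labelled ones, as for 4.96% of all genes. Averaged over tissues the log2 difference was -0.21 (SE 0.15, unadjusted p = 0.1860, adjusted p = 1; with the replicate number as a block SE 0.09, unadjusted p = 0.0418, adjusted p = 0.9063), so it did not pass the test over all genes. This direction includes the pairs numbered 3, in which Cd40 was higher on the Cre-labelled array.

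NIK also had Cre-labelled spleen arrays below all control-labelled ones, with Cre-to-control ratios of 0.725, 0.671 and 0.904 for Map3k14 there. So 2 of 8 members did not overlap between labels in spleen and 0 of 8 in lymph node, against 7.64% and 4.72% of all genes in either direction (in lymph node 2.71% with Cre below control). For markers of migratory dendritic cells in spleen, the sum over 6 genes was 5004 to 6813 on Cre-labelled and 7042 to 7657 on control-labelled arrays. Ccr7, the receptor that guides these cells to lymph nodes, lay at 2329 to 3439 on Cre-labelled and 3483 to 3668 on control-labelled arrays. Ccr7 alone did not overlap, with Cre-labelled arrays below control-labelled ones as for 4.96% of all genes. Fscn1, Ccl22, Cd83, Socs2 and Ccl5 each overlapped between the labels in spleen. None of the 6 was called there (median log2 difference -0.27), and in lymph node the sum overlapped, at 29304 to 39637 on Cre-labelled and 31482 to 40309 on control-labelled arrays. Their part in the spleen values of Cd40, Traf1 and Map3k14 was not tested. In lymph node the Map3k14 ratios were 1.14, 1.25 and 0.688, which point both ways. In the lymph node pair numbered 3, all 7 measured partners were lower on the Cre-labelled array, with ratios from 0.566 for Traf2 to 0.855 for Traf1, while Cd40 was higher at 2.18; 48.8% of all genes were lower in that pair. In the other lymph node pairs the partners' ratios lay between 0.849 (Birc2, pair 2) and 1.25 (Map3k14, pair 2). In spleen the highest ratio of a partner was 1.27 for Traf2 in pair 1.

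**Figure D4:**
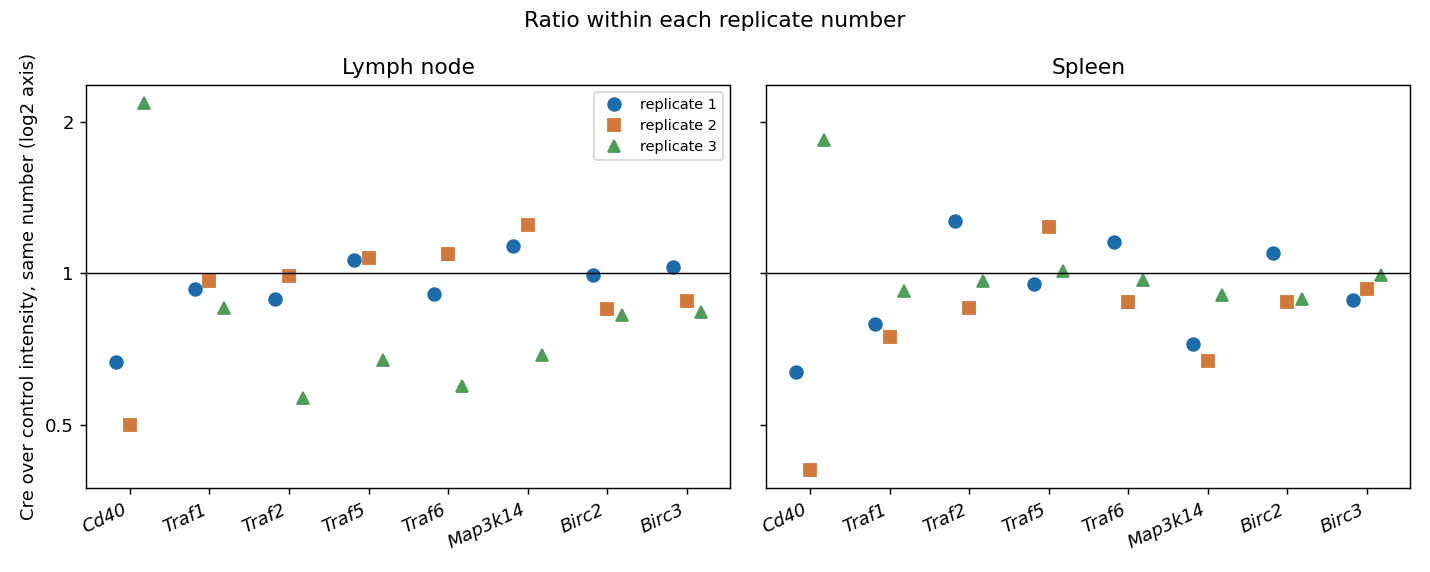
Ratio of the Cre-labelled to the control-labelled array of the same number (log axis, line at 1) for the 8 measured members, in lymph node on the left and spleen on the right, with circles, squares and triangles for numbers 1, 2 and 3. Cd40 has its triangle above 1 in both panels, at 2.18 and 1.84, and Traf1 has all 6 points below 1.

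For no member did the interaction term, the genotype difference in lymph node minus that in spleen, pass the test (limma, adjusted p of 0.9996 for each). The largest such differences were 0.38 for Map3k14 (SE 0.33) and -0.36 for Traf2 (SE 0.30), both lymph node minus spleen.

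Around the members, 54 further genes of the pathway were listed by role and 49 were measured. These lists too were made with earlier results of these data known, so their counts are a description. On Cre-labelled arrays 19 were called higher and 9 lower in lymph node (median log2 difference 0.17), and on control-labelled arrays 19 higher and 7 lower (0.20). Over all genes, 13.1% were called higher and 15.2% lower under the Cre label (median 0.07). Under the control label these shares were 12.9% and 13.2% (median 0.03). NF-kB subunits and their inhibitors were called higher in 7 of 9 under both labels and lower in none. Relb, the partner of p52 at the end of the NIK route, differed by 2.55 under the Cre label and 2.35 under the control label. Nfkbia and Nfkbib, which encode inhibitors that hold NF-kB in the cytoplasm, differed by 1.71 and 1.29 under the Cre label and by 1.49 and 1.18 under the control label. Ikbkb, a kinase of the canonical pathway, was the 1 called of 2 measured in its list and differed by 1.56 and 1.66.

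Of 11 other receptors that recruit TRAFs, 6 were called higher and 2 lower under the Cre label, and 6 higher and 1 lower under the control label. For this and the next lists, the shares of all genes were 13.1% higher and 15.2% lower under the Cre label. They were 12.9% and 13.2% under the control label. Tnfrsf4, which encodes OX40, differed by 3.99 and 3.65, Tnfrsf9, which encodes 4-1BB, by 3.32 and 3.02, and Tnfrsf11a, which encodes RANK, by 2.50 and 2.48. Tnfrsf1a, the type 1 TNF receptor, was lower, at -2.08 and -2.13. Of the remaining TRAF genes, Traf4 was the 1 called of 2 and was lower, at -1.27 and -1.51, unlike Traf1, Traf2, Traf5 and Traf6. The TAK1 and MAP kinase list had 0 of 9 higher and 4 lower under the Cre label, and 1 higher and 3 lower under the control label; Mapk14, the p38-alpha kinase, differed by -3.15 and -3.23.

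Of 15 ubiquitin regulators and TRAF-binding proteins, 5 were called higher and 2 lower under the Cre label, and 4 higher and 2 lower under the control label. Among all genes, 13.1% and 12.9% were called higher under the 2 labels, and 15.2% and 13.2% lower. Tnip1, an A20 partner, differed by 1.95 and 1.98, Tnfaip3, which encodes A20 itself, by 1.18 and 1.42, and Tank, a TRAF-binding adaptor, by 1.76 and 1.81. Xiap, a relative of the cIAPs, was lower, at -1.32 and -1.04, where Birc2 and Birc3 were higher. The ligand gene Cd40lg lay near background, between 27.7 and 46.0 on all arrays, and was not called (0.07, adjusted p = 0.7351 and 0.20, adjusted p = 0.3708). Between genotype labels 0 of the 49 genes were called in either tissue.

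Some marker genes of other cells moved with tissue beside these results, though not all of a list. Among all genes, 13.1% were called higher in lymph node and 15.2% lower under the Cre label, and 12.9% and 13.2% under the control label. The summed level of 4 measured T cell markers of 6 was 443 to 1103 on lymph node Cre and 539.9 to 960.5 on lymph node control arrays, and 333 to 460 on spleen Cre and 332 to 392 on spleen control arrays. Cd3e, Cd3g and Cd3d were called higher in lymph node under both labels. Cd4 was called lower under the Cre label (-0.44, adjusted p = 0.0277, limma) and was not called under the control label. For 9 of 10 B cell markers the sum was 392 to 467 on lymph node Cre, 351 to 456 on lymph node control, 626 to 718 on spleen Cre and 558 to 632 on spleen control arrays. Ms4a1, which encodes CD20, and Cd22 were called lower in lymph node, at -2.53 and -1.34 under the Cre label and -2.20 and -0.99 under the control label, while Cd79a, a component of the B cell receptor, lay at 21.9 to 32.5 on all arrays. For 7 of 8 macrophage and monocyte markers the sum was 595 to 708 on lymph node Cre, 615 to 623 on lymph node control, 3663 to 5085 on spleen Cre and 3470 to 4666 on spleen control arrays. Of these 7, 4 were called lower in lymph node under the Cre label and 3 under the control label, and none higher. Lyz2, Cd14 and Cd68 were called under both labels, while Adgre1, Fcgr1 and Mertk lay between 28.6 and 65.8 on all arrays. Of 5 stromal and epithelial markers, Epcam and Krt14 were called higher in lymph node and Pecam1 lower under both labels. Of 4 markers of plasmacytoid dendritic cells, Ccr9 was called lower and Tcf4 higher under both labels, and Bst2 higher under the control label. Of 5 markers of type 2 conventional dendritic cells, Cd209a was called lower under the Cre label and Itgam under the control label. Of 6 markers of migratory dendritic cells, 5 were called higher in lymph node under both labels, among them Fscn1 at 4.55 and 4.42. The part of these cells in the tissue differences of Cd40 and its partners was not tested.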

How the data were processed

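RNA of sorted cDC1 was hybridised to 12 arrays of the type Affymetrix Mouse Gene 1.0 ST, named in the annotation's header. Per the labels' protocols, biotinylated cDNA came from the WT Pico kit, meant for minute RNA inputs. The authors deposited RMA intensities; per the submitters' processing notes the tool was Affymetrix Expression Console, with no version named. They ran between 8.23 and 20398 and were read as linear; their log2 was computed from the deposited values. RMA normalizes between arrays, so each level is relative to the array's other probe sets.

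Of 28853 probe sets, 21789 carried 1 symbol, 1621 carried several, and 5443 were not listed in the annotation; 21698 single-symbol probe sets matched RefSeq by Entrez number. Where a gene had several probe sets (999 genes), the brightest was kept, leaving 19938 genes. limma 3.58.1 (R 4.3.3, package data.table, version 1.17.8) fitted 4 group means with a trend in eBayes, two-sided tests and Benjamini-Hochberg adjustment in each comparison; calls were made at an adjusted p under 0.05. Plots used matplotlib 3.10.9 (Python 3.11.15). Precision is limited by how few arrays each group holds.

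The numbers 1 to 3 of the labels were taken to pair arrays, since deviations from group means correlated over genes at 0.573 to 0.729 among arrays numbered 1, 0.309 to 0.449 among those numbered 2 and 0.293 to 0.466 among those numbered 3. Numbers 2 and 3 also correlated with each other, at 0.177 to 0.557. Their median was 0.393, beside medians of 0.416 among arrays numbered 2 and 0.354 among those numbered 3. The correlations thus set number 1 apart but do not tell number 2 from number 3, whose pairing rests on the labels.

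The members, gene lists, motifs and the promoters shown were chosen with earlier results of these data known. The rule for named genes took all members, up to 4 genes of a list with the largest called difference, and the 8 genes most like Cd40 in their deviations. Alternatives were the replicate block, each array and each number left out, no trend, quantile normalization, genes above the median level, the mean of probe sets, array weights, and only the arrays compared.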

Additional observations from a re-analysis of the deposited data

How the results depend on the processing

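With the replicate number as a block, the counts of genes called between tissues were 8170 under the Cre label and 7178 under the control label, against 5648 and 5207 without it; it called 0 genes between genotypes (1360 in lymph node and 886 in spleen at an unadjusted p under 0.05) and changed no member's call. Array weights called 8933 and 9020 genes between tissues, 2 between genotypes in lymph node, 51 in spleen and 3 in the interaction. Leaving arrays out gave 3081 to 7684 genes under the Cre label and 2865 to 6906 under the control label; without the 4 arrays numbered 3, 6 and 5 members were called, without number 2 6 and 7, and without number 1 8 and 8. Leaving arrays out moved the Cd40 difference between -0.79 and 0.27 in lymph node and between -0.97 and 0.12 in spleen, so its sign rests on which arrays are kept. In the same way the lymph node differences ran between -0.35 and 0.089 for Traf1, -0.38 and 0.11 for Traf5, and -0.26 and 0.25 for Map3k14, and the spleen ones between -0.14 and 0.15 for Traf2, -0.03 and 0.16 for Traf5, -0.32 and 0.20 for Traf6, and -0.25 and 0.062 for Birc2. None of these passed the test. With the block and 1 number left out, a setting chosen after seeing the data, Cd40 in lymph node was 0.061, 0.270 and -0.792 without numbers 1, 2 and 3. In spleen Cd40 was -0.208, 0.117 and -0.972 without numbers 1, 2 and 3, and none of these values passed the adjusted test. In lymph node 1 gene was called without number 3 in that setting. That setting also ended the Map3k14 call under the Cre label without number 2 (adjusted p = 0.2092), called it under the control label without number 1 (adjusted p = 0.0109), and reversed Traf5 (0.098) and Map3k14 (0.251) in lymph node without number 3, and in spleen Traf2 (-0.139, without 1), Traf5 (-0.025, without 2) and Traf6 (0.084 and 0.011, without 2 and 3). Quantile normalization gave -0.021 for Traf2 in spleen and 0.03 for Map3k14 in lymph node, and array weights gave -0.14 for Traf2 in spleen. The cause of these changes was not tested. Depth does not apply to arrays, and 3 per group limit what can be seen.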
